A study of Mus musculus with 6 samples.

Results

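The nuclear genes of respiratory complexes II to V were examined in LSK cells, the bone marrow fraction that lacks lineage antigens and carries Sca1 and cKit, and in which stem cells and early progenitors of the blood are found. Members were the genes whose symbols begin with Uqcr, Cox4 to Cox8 or Atp5, together with Sdha to Sdhd, Cyc1 and Cycs, each on a probe set naming that gene alone; where a gene had several, the one with the highest mean over the 6 arrays stood for it. This gave 49 of the 22180 genes measured: 4 of complex II, 9 of complex III, cytochrome c, 17 of complex IV and 18 of complex V. By textbook role, 39 are subunits that most cells use, 7 are isoforms known from other tissues, 1 is an accessory factor (Cox7a2l) and 2 are pseudogenes (Uqcrh-ps1 and Atp5c1-ps). Uqcr10 and Cox6c, whose probe sets also name another gene, were not analysed here.

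The study set 3 mice given Tifab+/+ bone marrow (Tifab_WT) beside 3 given Tifab-/- bone marrow (Tifab_KO), with 1 Affymetrix MoGene 2.0 ST array each. Tifab encodes a relative of TIFA, an adaptor of the TRAF6 pathway, and the series asks how loss of this del(5q) gene alters the LSK profile before the marrow fails. Both groups came from a transplant setting with lethally irradiated Boy/J mice as recipients. A span of 3 months is named, but whether it counts from birth or from transplantation is unclear. The labels name no marker that separated donor from host cells in the sort and do not describe the deleted part of Tifab.

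Respiratory complexes sit in the inner mitochondrial membrane. Complex II passes electrons from succinate to ubiquinone, complex III passes them on to cytochrome c, and complex IV hands them to oxygen; complex V, the ATP synthase, uses the proton gradient built on the way to make ATP. Complex II is wholly encoded in the nucleus, whereas the other complexes also hold subunits encoded on mitochondrial DNA. Long-term stem cells are known for leaning on glycolysis while quiescent and for raising respiration as they differentiate.

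Across genes, r was 0.984 to 0.986 within Tifab_KO, 0.976 to 0.979 within Tifab_WT and 0.975 to 0.983 between the groups. The Tifab_WT arrays were not set apart as a group. Tifab_WT replicate 3 had r of 0.982, 0.983 and 0.980 with the Tifab_KO arrays, but 0.976 and 0.979 with the other Tifab_WT arrays. Tifab itself read 4.99, 5.37 and 5.53 in the Tifab_WT arrays and 5.21, 5.12 and 5.26 in the Tifab_KO arrays on the log2 scale, and these ranges overlapped, so the probe set gives no check on the labels. Of the 11 LSK markers measured, 8 lay in the brightest decile of genes, among them Kit at 9.59 and 9.52 and Cd34 at 10.42 and 10.55 (Tifab_WT and Tifab_KO means), both with overlapping groups. Among the other LSK markers the groups were apart for Meis1, at 8.24 and 8.62, and for Cd27, both higher in Tifab_KO, and for Hlf, lower at 7.79 and 7.47. Of 14 measured genes of lineages that the sort removes, 1 lay there, Mpo, which myeloid progenitors also express and whose groups were apart at means of 10.77 and 10.94; the mean level of this list was 4.76 to 4.92 in Tifab_WT and 4.84 to 4.99 in Tifab_KO. Other lists of mature cells also had genes in the brightest decile. These were 6 of 12 mature neutrophil, 2 of 8 B and plasma cell, 2 of 8 erythroid, 1 of 10 macrophage and 1 of 11 T and NK cell genes. The B and plasma cell list had a mean of 6.26, 6.54 and 7.45 in the Tifab_WT arrays and 6.83 to 7.09 in Tifab_KO. In Tifab_WT replicate 3, its highest array, Mzb1 read 8.17, beside 5.15 and 5.67 in the other Tifab_WT arrays. The mature neutrophil list had 7.53 to 7.84 and 7.42 to 7.75, with 2 of its 12 genes, Mmp8 and Cd177, lower in every Tifab_KO array. The macrophage list had a mean of 4.60 to 4.78 and 4.64 to 4.80, with Vcam1 at -0.74 and C1qb at -0.51 lower and C1qa at 0.52 higher in every Tifab_KO array. The erythroid list had 5.79 to 6.21 and 5.96 to 6.03, and the T and NK cell list 4.09 to 4.41 and 4.28 to 4.41. The part of all these markers in the values below was not tested. In such bulk samples, fewer cells of a type and less RNA per cell cannot be told apart.

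No member differed between the genotypes after Benjamini-Hochberg adjustment over all 22180 genes in limma, which called 0 of all genes (0%); the lowest adjusted p among members was 0.297. At an unadjusted limma p under 0.05, 6 of the 49 members were higher in Tifab_KO and 0 lower, a share of 12.2% higher. Over all genes the rule held for 10.3%, of which 4.74% were higher and 5.51% lower. Most members are bright, 34 of them in the brightest decile of genes, where 8.88% of all genes were higher and 4.15% lower. Of those 34 members, 5 were higher, or 14.7%. All 5 lay in the brightest 2% of genes, which held 20 of the members. There, 15.8% of all genes were higher and 3.6% lower. The 6 genes were Cycs, Cox7b, Cox5b, Atp5g1, Atp5k and Atp5mpl, which belong to cytochrome c, complex IV and complex V. Complexes II and III had none.

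By direction alone, 30 of 49 members were higher in Tifab_KO, 61.2% against 50% of all genes. Signal level moved with this count, since 60% of the genes in the brightest decile were higher too, and their median log2 difference was 0.05. The members' median was 0.08, and 0.03 above the medians of the genes of like brightness (each member against the decile of genes holding its mean signal). Among the brightest 34 members, 24 were higher (70.6%). Within the brightest decile, 11 of 12 complex V genes were higher. Complex IV, with 7 of 11 (63.6%), and complex III, with 4 of 7 (57.1%), lay near the 60% of all genes there. Complex II had 1 of 3. In the brightest 2% of genes, which held 20 of the members, 68.2% of all genes were higher. Of those 20 members, only Cox4i1, Cox6a1 and Atp5l were lower. These counts carry no test.

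**Figure D1:**
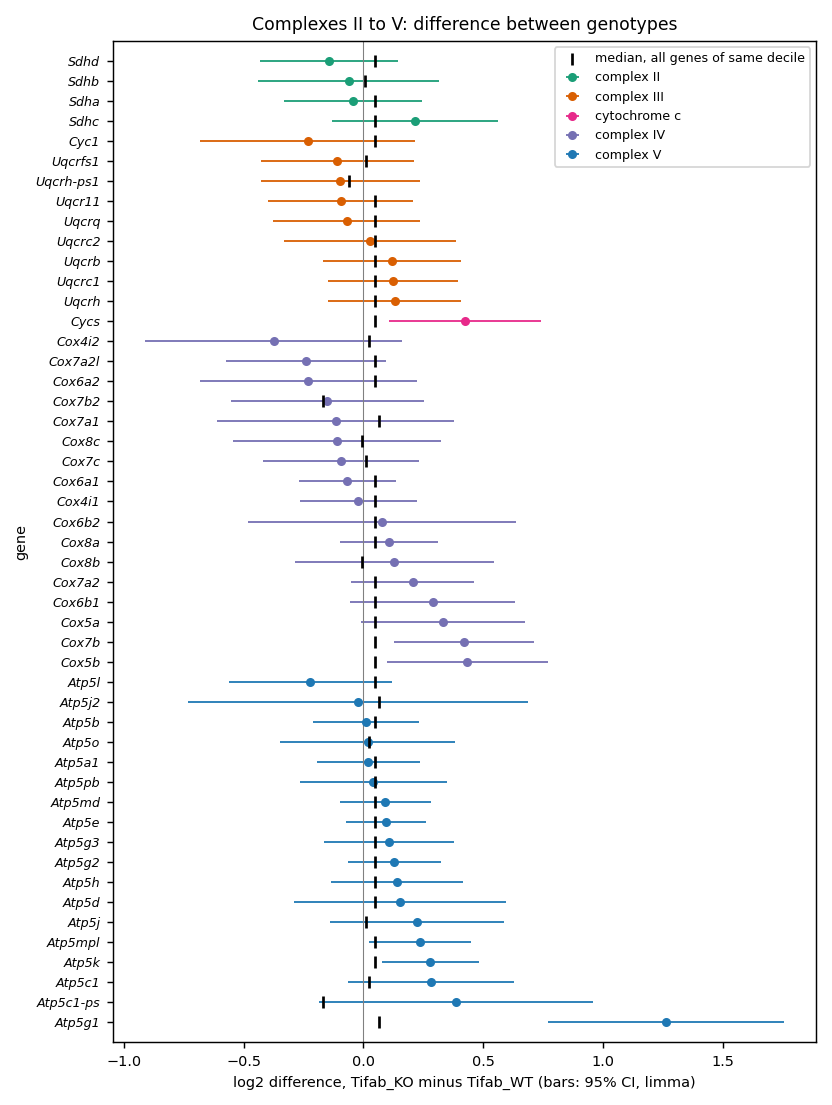
Log2 difference between Tifab_KO and Tifab_WT (horizontal axis) for each of the 49 members, coloured by complex, with bars for the 95% confidence interval from limma; black ticks mark the median of all genes in the same decile of signal. Atp5g1 stands apart at 1.26, and the intervals of Cycs, Cox7b, Cox5b, Atp5k and Atp5mpl also lie above 0, while those of every complex II and complex III gene cross it.

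Complex II showed no difference beyond its replicate spread. Sdha, the flavoprotein that oxidises succinate, read 8.68, 9.02 and 8.78 in Tifab_WT and 8.69, 8.89 and 8.78 in Tifab_KO, a log2 difference of -0.04 with a 95% confidence interval of -0.33 to 0.24. Sdhb, its iron-sulfur partner, had -0.06 (-0.44 to 0.32). The groups of both genes overlapped, and both values changed sign with some single arrays left out. Of the membrane anchors that hold ubiquinone, Sdhc read 8.73, 8.80 and 8.84 in Tifab_WT and 8.65, 9.22 and 9.14 in Tifab_KO, with 1 Tifab_KO array below and the others above the whole Tifab_WT range. Its difference of 0.21 (-0.13 to 0.56) fell to 0.11 without Tifab_KO replicate 2. Sdhd read 7.89, 7.78 and 7.71 against 7.62, 7.58 and 7.74, a difference of -0.14 (-0.43 to 0.14) in the other direction. The median of the 4 genes was -0.05.

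Complex III was likewise near 0, with a median of -0.07 over 9 genes, 4 higher and 5 lower, and no gene whose groups were apart. Cyc1, the cytochrome c1 subunit that donates electrons to cytochrome c, read 7.75, 7.96 and 8.49 in Tifab_WT and 8.07, 7.78 and 7.66 in Tifab_KO. Its difference of -0.23 (-0.68 to 0.22) rested on Tifab_WT replicate 3, the highest array, and was -0.02 without it. Uqcrfs1, the Rieske iron-sulfur protein, had -0.11 ± 0.14 (SE). The core proteins Uqcrc1 and Uqcrc2 had 0.12 ± 0.12 and 0.03 ± 0.16 (SE each), and the hinge protein gene Uqcrh 0.13 ± 0.12 (SE). Without Tifab_WT replicate 1 the value of Uqcrh was 0.04, and without Tifab_KO replicate 1 the value of the small subunit gene Uqcrb, 0.12 ± 0.13 (SE), was 0.02. The remaining small subunit genes Uqcr11 and Uqcrq had -0.09 and -0.07, and the pseudogene Uqcrh-ps1, dim at 2.60 and 2.51, had -0.10.

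Cytochrome c, the soluble carrier between complexes III and IV and a trigger of apoptosis when released to the cytosol, was higher in Tifab_KO at an unadjusted p under 0.05. Cycs read 9.01, 9.36 and 9.48 in the Tifab_WT arrays and 9.77, 9.81 and 9.54 in the Tifab_KO arrays. Every Tifab_KO array lay above every Tifab_WT array. The means were 9.28 ± 0.25 and 9.71 ± 0.14 (SD, n = 3 each), a log2 difference of 0.42 ± 0.14 (SE, limma adjusted p = 0.384) or 1.34-fold. With single arrays left out the difference ran from 0.29, without Tifab_WT replicate 1, to 0.52, without Tifab_WT replicate 3. The array has 5 probe sets that name Cycs alone, and the dimmer ones did not all follow. One at 5.95 and 6.71 had a difference of 0.76 with groups apart, a pair with identical values had 0.41, and one at 5.85 and 5.50 had -0.36, with every Tifab_KO array below every Tifab_WT array. Processed copies of Cycs are common in the mouse genome, and the sources used here do not say which of them each probe set reads.

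Complex IV held genes on both sides. Of its 17 genes 8 had positive and 9 negative differences, around a median of -0.02. Its 9 common nuclear subunits had a median of 0.21, with 6 higher; this value was 0.13 without Tifab_KO replicate 3, 0.16 without Tifab_WT replicate 1 and 0.13 after cyclic loess, a normalization that evens out shifts with signal level. The 7 tissue isoforms had a median of -0.12, with 2 higher. The split into common subunits and isoforms was made after the values had been seen.

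Among the common subunits, Cox7b and Cox5b differed most by their brightest probe sets. Cox7b, a small subunit needed for assembly of the complex, read 9.18, 9.32 and 9.61 in Tifab_WT and 9.81, 9.66 and 9.91 in Tifab_KO. All Tifab_KO arrays were above all Tifab_WT arrays, by a log2 difference of 0.42 ± 0.13 (SE, limma adjusted p = 0.362) or 1.34-fold. Cox5b, a zinc-binding subunit on the matrix side, read 9.23, 9.41 and 9.73 in Tifab_WT and 9.87, 9.70 and 10.10 in Tifab_KO. Here the groups met, since Tifab_KO replicate 2 lay just under Tifab_WT replicate 3. Its difference was 0.43 ± 0.15 (SE, limma adjusted p = 0.392). With single arrays left out, Cox7b ran from 0.32 to 0.54 and Cox5b from 0.32 to 0.57. Both were lowest without Tifab_WT replicate 1, where 1 common subunit of complex IV had an unadjusted limma p under 0.05. A second probe set of Cox7b, at 4.36 and 4.93, gave 0.57 with overlapping groups, and one of Cox5b, at 6.59 and 6.60, gave 0.01, so the mean of the probe sets put Cox5b at 0.22. With that mean, 0 of the 9 common subunits of complex IV had an unadjusted limma p under 0.05, where the brightest probe sets gave 2.

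The next common subunits had the same direction, with intervals that included 0. Cox5a, which joins Cox5b on the matrix side, read 9.63 to 10.29 in Tifab_WT and 10.21 to 10.36 in Tifab_KO, a difference of 0.33 (-0.01 to 0.68). Tifab_WT replicate 1 was its lowest array, and without it the value was 0.16. Cox6b1, on the side facing cytochrome c, had 0.29 (-0.06 to 0.63) and 0.13 without Tifab_KO replicate 3. Cox7a2 and Cox8a had 0.21 ± 0.11 and 0.11 ± 0.09 (SE each). Cox4i1, the large regulatory subunit, had -0.02 (-0.27 to 0.22), Cox6a1 -0.07 (-0.27 to 0.13) and Cox7c -0.09 (-0.42 to 0.23). Cox7a2l, which helps join complexes III and IV into supercomplexes, was lower at 7.90 against 8.14, a difference of -0.24 ± 0.15 (SE).

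The isoforms known from muscle, lung and testis did not separate the genotypes. Cox4i2, the lung isoform that replaces Cox4i1 under low oxygen, read 4.92, 5.80 and 5.55 in Tifab_WT and 4.95, 5.31 and 4.89 in Tifab_KO, a difference of -0.37 (-0.91 to 0.16). It was -0.18 without Tifab_WT replicate 2 and -0.63 without Tifab_WT replicate 1. Cox6a2, the heart and muscle isoform, had 7.61 and 7.38, a difference of -0.23 ± 0.20 (SE), and -0.06 without Tifab_WT replicate 3. Cox6b2, the testis isoform, had 8.53 ± 0.36 and 8.60 ± 0.48 (SD, n = 3 each). Both probe sets lay in the brightest decile of genes. Cox7a1, Cox7b2, Cox8b and Cox8c were dim, with means between 2.20 and 4.55 in either group and differences of -0.15 to 0.13. Levels of different probe sets are not compared here, since each binds with its own strength.

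**Figure D2:**
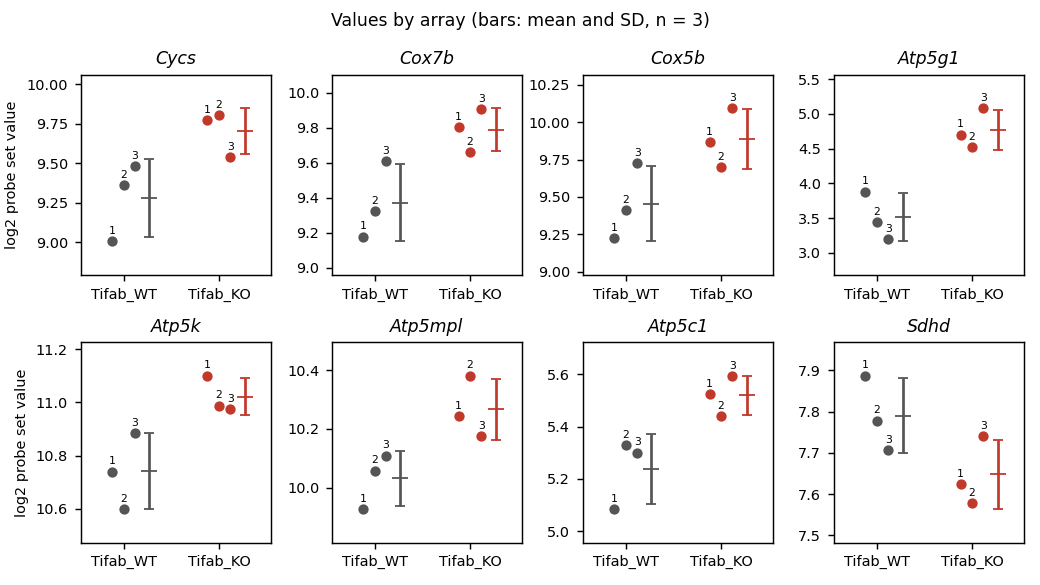
Log2 probe set values (vertical axes, each with its own range) of 8 members in the 3 Tifab_WT and 3 Tifab_KO arrays; points carry the replicate number, and bars show the mean and SD. The groups are apart for Cycs, Cox7b, Atp5g1, Atp5k, Atp5mpl and Atp5c1, meet for Cox5b and overlap for Sdhd.

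In complex V, 16 of 18 members were higher in Tifab_KO, with a median of 0.12. The direction depended on the scaling and on single arrays: of its 17 common subunits 15 were higher, but 10 after cyclic loess, 11 after quantile normalization, 11 without Tifab_KO replicate 1 and 12 without Tifab_WT replicate 1. The median was 0.06 without Tifab_WT replicate 1 and 0.04 after cyclic loess. Against the genes of like brightness, 12 members lay above and 6 below, with a median of 0.07. Taken over all members, 6 of 49 had every Tifab_KO array above every Tifab_WT array, a share of 12.2%, and 0 the reverse. Over all genes these shares were 7.75% and 8.37%, and in the brightest decile 12.3% and 6.45%. In the brightest 2% of genes, which held 20 of the members, they were 19.1% and 5.41%. Of these 6 genes, 4 belonged to complex V.

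The c-ring, the rotor that protons turn, is built from a single small protein encoded by Atp5g1, Atp5g2 and Atp5g3. Atp5g1 read 3.88, 3.44 and 3.20 in the Tifab_WT arrays and 4.70, 4.53 and 5.09 in the Tifab_KO arrays. The groups were apart, with a difference of 1.26 ± 0.22 (SE, limma adjusted p = 0.297) on the log2 scale. With single arrays left out it ran from 1.11 to 1.45, and its adjusted p over all alternatives from 0.195 to 0.645. The probe set is dim: the Tifab_WT mean of 3.51 lay under the signal line of 3.87 used to leave out dim genes. That mean was among the levels of lineage genes such as Cd8a at 3.68 and Ncr1 at 3.40. Of the Tifab_WT arrays, replicate 1 at 3.88 lay just above the line and the others under it. The gene's mean passed the line through the Tifab_KO arrays, and the size of the difference is uncertain. Atp5g2 read 10.75, 10.90 and 10.93 against 11.03, 10.87 and 11.07, and Atp5g3 9.02, 9.28 and 9.38 against 9.31, 9.29 and 9.40. Their groups overlapped, with differences of 0.13 (-0.07 to 0.32) and 0.11 (-0.16 to 0.38). A second probe set of Atp5g2 gave 0.06, and without Tifab_WT replicate 1 Atp5g2 had 0.08 and Atp5g3 0.00. The difference between Atp5g1 and its partners was not tested.

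Among the other membrane parts of the synthase, Atp5k and Atp5mpl were higher at an unadjusted p under 0.05. Atp5k, the e subunit that helps synthases pair at the folds of the membrane, read 10.74, 10.60 and 10.88 in Tifab_WT and 11.10, 10.99 and 10.98 in Tifab_KO. All Tifab_KO arrays were higher, by 0.28 ± 0.09 (SE, limma adjusted p = 0.372). Atp5mpl, a small proteolipid of the same region, read 9.93, 10.06 and 10.11 against 10.24, 10.38 and 10.18, again with groups apart and a difference of 0.24 ± 0.10 (SE, limma adjusted p = 0.458). Both shrank when shifts with signal were evened out, to 0.18 and 0.15 after cyclic loess. Complex V then had 1 common subunit with an unadjusted limma p under 0.05, Atp5g1, in place of 3. The count was also 1 after quantile normalization and without the intensity trend. Atp5md, known as a factor that keeps the synthase stable, had 0.09 ± 0.09 (SE). Atp5l, the g subunit that pairs with Atp5k, had -0.22 ± 0.15 (SE), a value set by Tifab_WT replicate 1 at 12.03 beside 11.35 and 11.45 in its group and 11.31 to 11.45 in Tifab_KO. Atp5j2 varied most among members, with 5.03, 3.58 and 4.56 in Tifab_WT and 4.34, 4.29 and 4.47 in Tifab_KO.

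The catalytic F1 head and the peripheral stalk that holds it lay close to genes of like brightness. All 5 F1 genes had positive differences, from 0.01 to 0.28, and all 4 stalk genes, from 0.02 to 0.22; in the brightest decile, which holds 6 of these 9 genes, 60% of all genes were higher. Of the 9, 3 F1 and 2 stalk genes lay above the median of their decile, and 0 had an unadjusted p under 0.05. Atp5c1, the central shaft of the head, read 5.08, 5.33 and 5.30 in Tifab_WT and 5.52, 5.44 and 5.59 in Tifab_KO, so its groups were apart, with a difference of 0.28 (-0.06 to 0.63, limma adjusted p = 0.556). The subunits that form the catalytic sites were closest to 0: Atp5a1 had 0.02 (-0.19 to 0.24) and Atp5b 0.01 (-0.21 to 0.23). Atp5d and Atp5e, which complete the shaft, had 0.15 ± 0.20 and 0.09 ± 0.07 (SE each), although a second probe set of Atp5e, at 11.45 and 11.65, had its groups apart at 0.20. In the stalk Atp5j had 0.22 ± 0.16, Atp5h 0.14 ± 0.12, Atp5pb 0.04 ± 0.14 and Atp5o 0.02 ± 0.16 (SE each). The pseudogene Atp5c1-ps was near the bottom of the signal range, at 2.09 and 2.47.

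Promoter sequence was examined because nuclear respiratory genes are classically bound by NRF1, by ETS family factors such as GABP, by YY1 and, in some members, by CREB. RefSeq promoter windows of GRCm38.p6, from 250 bases before to 50 after a gene's start, were matched for 36 of the 49 members, giving 39 windows. The upstream 250 bases are printed for 5 of the 6 genes that were higher in Tifab_KO at an unadjusted p under 0.05, all but Atp5mpl, which had no match, so that the letters can be compared. These genes were picked by their brightest probe sets, and the other probe sets of Cycs and Cox5b did not all follow. Capitals mark an NRF1 motif (GCGCA and GCGC with any base between them, or the short form GCATGCGC), the cyclic AMP response element TGACGTCA, the ETS motif CCGGAAG, the YY1 motif AAGATGG or a CCAAT box, on either strand.
Cycs, chr6:50566570-50566819, minus strand: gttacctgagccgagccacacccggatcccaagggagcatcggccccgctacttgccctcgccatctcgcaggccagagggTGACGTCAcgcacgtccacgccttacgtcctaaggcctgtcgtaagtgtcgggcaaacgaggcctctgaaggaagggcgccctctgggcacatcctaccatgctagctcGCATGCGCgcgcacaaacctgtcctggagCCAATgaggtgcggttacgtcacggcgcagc
Atp5k, chr5:108434400-108434649, minus strand: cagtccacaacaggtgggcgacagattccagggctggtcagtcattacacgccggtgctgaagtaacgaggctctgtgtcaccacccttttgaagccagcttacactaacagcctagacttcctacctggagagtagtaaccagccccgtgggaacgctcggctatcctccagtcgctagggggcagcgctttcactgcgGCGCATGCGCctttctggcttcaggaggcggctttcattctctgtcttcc
Atp5g1, chr11:96075632-96075881, minus strand: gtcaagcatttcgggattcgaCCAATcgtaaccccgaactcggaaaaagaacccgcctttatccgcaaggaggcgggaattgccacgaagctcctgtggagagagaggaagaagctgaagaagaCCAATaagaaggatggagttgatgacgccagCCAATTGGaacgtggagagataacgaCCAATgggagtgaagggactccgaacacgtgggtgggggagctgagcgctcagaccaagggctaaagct
Cox7b, chrX:106015450-106015699, plus strand: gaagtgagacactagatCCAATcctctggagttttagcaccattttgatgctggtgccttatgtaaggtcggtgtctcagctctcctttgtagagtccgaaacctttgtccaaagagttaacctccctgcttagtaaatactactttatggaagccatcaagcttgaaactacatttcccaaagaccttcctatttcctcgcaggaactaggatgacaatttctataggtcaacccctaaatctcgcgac
Cox5b, chr1:36691237-36691486, plus strand: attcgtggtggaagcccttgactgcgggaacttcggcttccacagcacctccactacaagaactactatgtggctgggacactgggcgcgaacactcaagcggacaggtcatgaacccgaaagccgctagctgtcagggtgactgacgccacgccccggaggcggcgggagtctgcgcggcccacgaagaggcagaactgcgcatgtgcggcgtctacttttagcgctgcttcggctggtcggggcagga
In the printed bases, Cycs holds a cyclic AMP response element, a short NRF1 motif and a CCAAT box. Atp5k holds a full NRF1 motif, within which the short form also stands on either strand. The whole window of Atp5k also has an ETS motif, which does not lie wholly within the printed bases. Atp5g1 holds 5 CCAAT boxes, of which a pair overlaps, Cox7b 1 CCAAT box, and Cox5b none of these letters.

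The full NRF1 motif stood in 10 of the 39 member windows (25.6%), against 4.6% of all 32851 windows and 12.5% of the 2162 windows of genes in the brightest decile. These 10 genes were Sdha, Sdhd, Uqcrc1, Cox6a1, Atp5c1, Atp5g2, Atp5g3, Atp5h, Atp5k and Atp5o, of which Atp5k alone was higher at an unadjusted p under 0.05; 6 of them are among the 15 complex V genes with a window and 1 among the 13 of complex IV. The ETS motif stood in 13 member windows (33.3%), against 8.86% of all and 20.6% of bright windows, and the CCAAT box in 21 (53.8%), against 37.4% and 37.9%. YY1 motifs stood in 4 windows (10.3%, against 6.34% and 8.09%), all of complexes IV and V, and the cyclic AMP response element in 2 (5.13%, against 1.79% and 3.28%), those of Cycs and Uqcrfs1. The short NRF1 form stood in 8 (20.5%, against 2.71% and 6.71%). A match is a string of letters and not a bound site.

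Of the subunits encoded on mitochondrial DNA that were measured, CYTB belongs to complex III, COX1 and COX3 to complex IV, where they are partners of the nuclear members, and the other 7 to complex I. Mitochondrial DNA is transcribed as long precursors that are cut afterwards, so most of these genes share a precursor and they are not independent. All 10 that were measured had groups that did not overlap, 9 higher and 1 lower in Tifab_KO, and all 10 had an unadjusted p under 0.05. Among the brightest 2% of genes, which hold all 10, groups were apart in the higher direction for 19.1% and in the lower for 5.41%, and 15.8% and 3.6% had such a p; 68.2% of these genes were higher by any amount. CYTB, the cytochrome b of complex III, read 11.72, 11.60 and 11.78 in Tifab_WT and 11.98, 11.90 and 12.02 in Tifab_KO, a difference of 0.27 ± 0.07 (SE, limma adjusted p = 0.334). Of the catalytic core of complex IV, COX1 read 11.61, 11.64 and 11.71 against 11.85, 11.83 and 11.89, and COX3 11.56, 11.61 and 11.71 against 11.85, 11.88 and 11.86, with differences of 0.21 ± 0.06 and 0.24 ± 0.06 (SE each). COX2, ATP6 and ATP8 were not analysed here.

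The complex I genes of mitochondrial DNA fell on both sides. ND1, ND2, ND4, ND4L, ND5 and ND6 were higher by 0.15 to 0.29. ND3 read 11.69, 11.86 and 12.06 in Tifab_WT and 11.51, 11.11 and 11.33 in Tifab_KO, lower in every Tifab_KO array by a log2 difference of -0.56 ± 0.12 (SE, limma adjusted p = 0.297). The directions, 9 higher and 1 lower, were the same under all 15 alternatives, but the sizes were not: the median of 0.20 was 0.08 after cyclic loess, where 1 of the 9 had an unadjusted p under 0.05 on the higher side, and 0.11 after quantile normalization, where 4 did. Without the intensity trend in limma 0 of the 9 did, and ND3 still did.

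**Figure D3:**
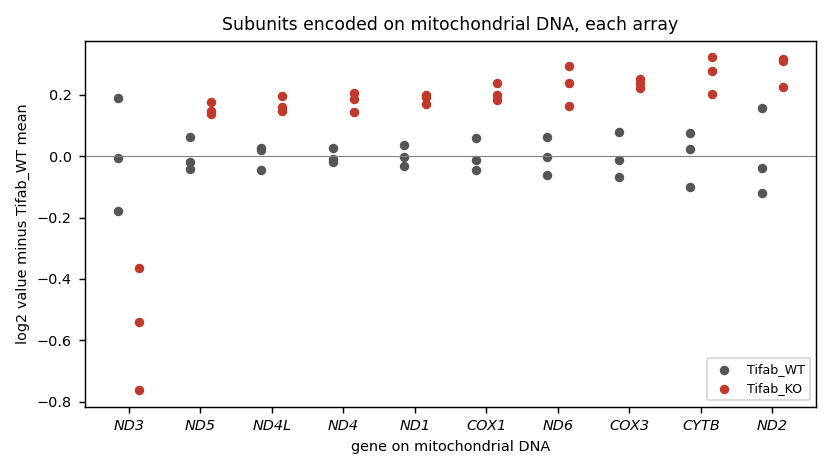
Log2 value of each array minus the Tifab_WT mean (vertical axis) for the 10 subunit genes of mitochondrial DNA, with Tifab_WT arrays in grey and Tifab_KO arrays in red. For 9 genes every red point lies above every grey point, and for ND3 every red point lies below.

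Other genes of the pathway gave mixed directions. Of 33 measured nuclear complex I subunit genes, 25 were higher, with a median of 0.08. An unadjusted p under 0.05 was reached by 5 of them on the higher side and 0 on the lower. Of the 33 genes 25 lie in the brightest decile, where 60% of all genes were higher and 8.88% had such a p on that side. After quantile normalization 20 and after cyclic loess 21 were higher, with a median of 0.02 in both. Without Tifab_WT replicate 1 these became 19, 2 and a median of 0.01. The examples with the smallest p were Ndufb3 at 0.79 ± 0.25, Ndufv2 at 0.45 ± 0.16 and Ndufab1 at 0.50 ± 0.18 (SE each). Among 33 assembly factors of complexes II to V, 2 higher and 2 lower genes reached such a p, against 4.74% and 5.51% of all genes. The counts were 1 and 0 without Tifab_WT replicate 2, 4 and 1 without Tifab_WT replicate 3, 3 and 0 without Tifab_KO replicate 2, 1 and 3 without Tifab_WT replicate 1, and 1 and 1 without Tifab_KO replicate 1 or 3. Cox20, a chaperone of the complex IV subunit COX2, read 7.62, 8.17 and 7.86 in Tifab_WT and 8.54, 8.54 and 8.89 in Tifab_KO, a difference of 0.77 ± 0.17 (SE, limma adjusted p = 0.297) with groups apart. Sdhaf1, which inserts iron-sulfur clusters into Sdhb, had 0.60 ± 0.21 (SE), whereas Coa7 had -0.54 ± 0.21 (SE) and Bcs1l, which puts the Rieske protein into complex III, -0.38 ± 0.16 (SE).

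In the tricarboxylic acid cycle and the pyruvate dehydrogenase step before it, 3 of 17 genes were lower and 0 higher at an unadjusted p under 0.05, against 5.51% lower over all genes and 4.15% in the brightest decile. The 3 became 1 without Tifab_WT replicate 1, Tifab_WT replicate 2, Tifab_KO replicate 1 or Tifab_KO replicate 2, and 2 without Tifab_WT replicate 3; without Tifab_KO replicate 3 there were 2 lower and 2 higher. Pdha1, the catalytic subunit of pyruvate dehydrogenase, read 8.04, 8.10 and 7.89 in Tifab_WT and 7.72, 7.32 and 7.48 in Tifab_KO, with groups apart and a difference of -0.50 ± 0.15 (SE, limma adjusted p = 0.356). The isocitrate dehydrogenase genes Idh2 and Idh3a had -0.29 ± 0.11 and -0.37 ± 0.16 (SE each), also with groups apart. The median of the 17 was 0.04. None of 20 glycolysis genes (median -0.07) and none of 17 regulators of mitochondrial biogenesis (median 0.08) had an unadjusted p under 0.05; after cyclic loess 2 glycolysis genes were lower at such a p, and single arrays left out gave at most 1 gene in either list. The glycolysis genes Hk1, Pdk3 and Ldha had -0.26, 0.24 and -0.28, and among the regulators Tfb2m, a mitochondrial transcription factor, had 0.40 ± 0.20, Gabpb1, a partner of GABP, -0.28 ± 0.15 and Myc 0.25 ± 0.13 (SE each).

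The values of many members were low in a single array. Tifab_WT replicate 1 was the lowest of the 6 arrays for 19 of the 49 members (38.8%), and for 18 of the 34 in the brightest decile (52.9%). Over all genes of the brightest decile it was lowest for 33.1%, and over all genes for 21.8%. Its mean r with the other arrays was 0.976, the lowest of the 6. After each gene's own mean was taken off, the median of the complex V genes was -0.17 in this array, -0.11 and 0.02 in the other Tifab_WT arrays and 0.03 to 0.09 in Tifab_KO; for complex II it was -0.11 here, and also -0.11 in Tifab_KO replicate 1. Without Tifab_WT replicate 1, 27 of 49 members were higher, 4 of them and 1 lower member had an unadjusted p under 0.05, and the median fell to 0.03. The median was 0.02 without Tifab_KO replicate 1 and 0.01 after cyclic loess, with 25 of 49 higher.

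**Figure D4:**
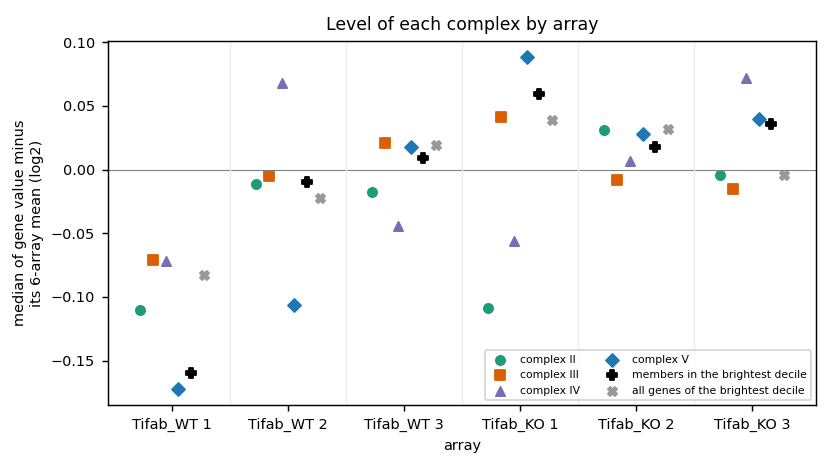
Median over genes of the log2 value minus the gene's mean over the 6 arrays (vertical axis), for each complex, for the 34 members in the brightest decile of genes and for all 2218 genes of that decile, by array. Tifab_WT replicate 1 is lowest for complex V at -0.17, and at -0.08 for all genes of the brightest decile.

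**Figure D5:**
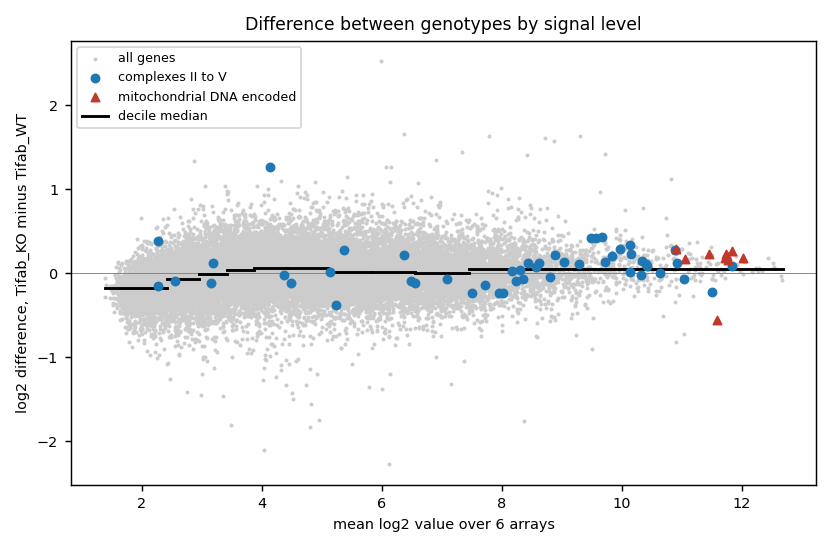
Log2 difference between Tifab_KO and Tifab_WT (vertical axis) against the mean log2 value over 6 arrays (horizontal axis) for all 22180 genes in grey, the 49 members in blue and the 10 mitochondrial DNA genes in red, with the median of each decile of genes as a black line. The line runs from -0.17 in the dimmest decile to 0.05 in the brightest, and Atp5g1 is the member farthest from it.

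The replicate spread sets what these arrays could show. The half-width of a member's 95% confidence interval had a median of 0.33 on the log2 scale, and of 0.29 among members in the brightest decile. The 33 common subunits with an unadjusted p of 0.05 or more had differences of -0.23 to 0.33. The half-widths of their intervals ran from 0.17 to 0.71, so that what could be detected differed by gene, and a value near 0 does not show that the groups were equal. The median replicate SD was 0.16 for members and 0.17 for all genes of the brightest decile.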

How the data were processed

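RNA of sorted LSK cells, amplified with the Ovation Pico system per the labels' protocols, was measured on 6 arrays, 3 mice per group per the labels; whether they are fully separate transplants is not stated, so p-values measure the spread between these samples. The authors deposited log2 probe set values, which per the submitters' processing notes came from Affymetrix Expression Console; how background was corrected, probes summarised and arrays normalized, and the software version, is not stated in the sources used here. Array medians lay at 4.05 to 4.10, and no further normalization was applied in the main fit. Like medians do not show a like scale at every signal level. The median log2 difference was -0.17 in the dimmest decile of genes and 0.05 in the brightest. A normalization to a common scale hides changes in total RNA per cell. Of 41345 probe sets, 23521 name 1 gene in the platform annotation, 1814 several and 16010 are not listed. The brightest of a gene's probe sets stood for it.

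Tifab_KO and Tifab_WT were compared with limma 3.58.1 in R 4.3.3 (lmFit, eBayes with an intensity trend, two-sided) over all 22180 genes, with Benjamini-Hochberg adjustment at 0.05; the script was tested on simulated data. Differences are Tifab_KO minus Tifab_WT, and confidence intervals are at 95%. Brightness groups are deciles of genes by mean signal, the top decile being the brightest. The members and lists were chosen with earlier results of these data known. Named are Tifab, all Sdh genes, Cyc1, Cycs, members past an unadjusted p of 0.05, members with groups apart, the 4 with the smallest p in each complex, isoforms, and up to 3 genes per other list; further names were chosen after their values were seen. The motifs were also chosen then. The alternatives were eBayes without trend or robust, array weights, quantile normalization, median centring, cyclic loess, dropping genes whose mean signal is below the 40th percentile, the mean of or each other probe set, a block for the replicate number, leaving each array out in turn, an adjusted p under 0.1, and, added after seeing the data, common subunits only and 50 brightness groups in place of 10. The deviations of same-numbered arrays from their group means had r of 0.02, -0.03 and -0.09 over genes. With 3 arrays per group, these values cannot decide whether the numbers mark a shared litter, batch or day.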

Additional observations from a re-analysis of the deposited data

How the results depend on the processing

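Over the alternatives run, limma called 0 genes at the adjusted threshold, also at an adjusted p under 0.1, except for 1 without Tifab_WT replicate 3 and 1 without Tifab_KO replicate 2; without adjustment 2274 genes had a p under 0.05. The 30 members higher became 27 to 32 with single arrays left out. The 6 members with an unadjusted p under 0.05 became 3 with the mean of probe sets and, in either direction, 5 to 9 with single arrays left out, the 9 without Tifab_WT replicate 3. Their count was 4 without the intensity trend, after quantile normalization and after cyclic loess, 5 after median centring and 7 with array weights. The members' median of 0.08 was 0.015 after quantile normalization, 0.005 after cyclic loess and 0.024 to 0.115 with single arrays left out; with 50 brightness groups it lay 0.01 above genes of like brightness. Complex V had 0.042 after quantile normalization, 0.037 after cyclic loess and 0.055 to 0.174 with single arrays left out. Complex III had -0.028 after quantile normalization, -0.022 after cyclic loess, -0.021 without dim genes, -0.021 with common subunits only and -0.081 to -0.007 with single arrays left out. Complex IV had 0.206 with common subunits only and -0.064 to 0.030 with single arrays left out, and complex II -0.107 to 0.001. The cause of these shifts was not tested. With the replicate number as a block, 5 members had an unadjusted p under 0.05 and 0 genes passed the adjusted threshold. The labels do not say whether the numbers pair the arrays. Of 394 values of the 26 named members under alternatives, 12 changed sign, in 7 genes, and 0 passed the adjusted threshold. With single arrays left out, Sdha ran from -0.119 to 0.053, Sdhb from -0.162 to 0.056, Cox8c from -0.252 to 0.057, Cox7a1 from -0.364 to 0.029, Cox7b2 from -0.265 to 0.038 and Cox6b2 from -0.179 to 0.295; Cox7b2 had 0.002 after quantile normalization, and a dimmer Cycs probe set gave -0.357. Cox7b2, Cox8b, Cox8c and both pseudogenes fell under the signal filter and gave no value there. For dim genes, signal close to the floor of the array limits any fold change.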
